A study of Homo sapiens with 3 samples.

Results

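Proteasome subunit genes were examined in khES3, an established line of human embryonic stem cells. The members were every probe set that names exactly 1 gene with a symbol of the form PSM, a letter from A to E and a number. This rule found 69 probe sets of 37 genes, of 41091 probe sets naming 1 gene and 54675 on the array. Undifferentiated cells were cultured for 5 hours in medium without leucine, in medium without lysine or in complete medium, and each of the 3 conditions was hybridised to 1 Affymetrix array. No animal, genotype or agent other than the medium distinguished the groups, and all of the cells came from the same line. With 1 array per condition there is no test between groups and no p-value, and the differences below have no replicate check. Of the 37 genes, 36 passed the level filter (a mean log2 signal over the arrays at or above the median of all probe sets) with at least 1 probe set, and 63 of the 69 probe sets passed it. PSMA8 was the exception, and 6 further subunit genes, PSMA6, PSMB11, PSMC5, PSMD7, PSMD13 and PSME2, were not analysed here.

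The proteasome degrades proteins that carry ubiquitin chains and returns their amino acids to the cell. Its core particle is a stack of alpha and beta rings with the proteolytic sites inside, and a regulatory particle of a base and a lid binds ubiquitinated substrates, removes the chains and unfolds the protein into the core. Human embryonic stem cells are known for high proteasome activity, and the transcription factor NFE2L1 (also called NRF1) is known to raise subunit genes together when the proteasome is impaired.

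The arrays had similar scaling but not identical RNA. The ratio of 3′ to 5′ signal of ACTB, which grows as RNA breaks down or is copied incompletely, was 7.55 on the leucine-deprived and 11.2 on the lysine-deprived array, against 5.44 in complete medium. For GAPDH it was 1.23 on the leucine-deprived array and slightly above that on the lysine-deprived array, against 1.08 in complete medium. The part of this difference in the results below was not tested. Markers of undifferentiated cells were bright, with 9 of 9 measured above the floor on each array and summed signals of 209309 and 207412 on the leucine- and lysine-deprived arrays and 196000 in complete medium. Each marker gene was taken at its highest probe set on an array. Of 4 immune cell markers with probe sets, 1, 3 and 2 were above the floor on the leucine-deprived, lysine-deprived and complete-medium arrays, with summed signals of 153, 357 and 246. Germ layer and trophoblast markers summed to 1111 and 1566 on the leucine- and lysine-deprived arrays and 1008 in complete medium over 12 genes, of which 7, 10 and 6 were above the floor. Fibroblast markers summed to 52822 and 52610 on those arrays and 57334 in complete medium over 10 genes, of which 6, 8 and 8 were above the floor. VIM, COL1A1, THY1 and COL1A2 gave most of that sum, and COL3A1, LUM, FAP and PDGFRB were dim. The part of other cells in the results was not tested. Fewer cells of a type and less RNA per cell cannot be told apart in such bulk samples.

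Most subunit genes read slightly below complete medium in either deprived medium, and hardly any differed by 1.5-fold. After leucine removal 27 of 36 genes (75%) lay below 0, with a median log2 difference in signal of -0.16 and a range from -0.62 to 0.23. Of all 12961 genes above the filter 48.3% lay below 0 with a median of 0.01, and of the brightest 10% of genes, which is the level at which 26 of the 36 subunit genes were read, 55.6% lay below 0 with a median of -0.03. After lysine removal 32 of 36 subunit genes (88.9%) lay below 0, with a median of -0.15 and a range from -0.65 to 0.20, beside 49.5% and a median of 0.00 for all genes and 56.4% and a median of -0.04 for the brightest 10%. These 2 comparisons share the complete-medium array, so a high or low reading there moves both.

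A gene was counted as higher or lower where it differed at least 1.5-fold (0.58 on the log2 scale) with both arrays above the floor, the 40th percentile of each array's signals. By that count 0 subunit genes were higher and 1, PSME3, was lower after leucine removal, where 8.86% of all genes were higher and 5.66% lower. After lysine removal 0 were higher and 1, PSMB9, was lower, where 12.5% of all genes were higher and 8.2% lower. The share past the fold was smaller among brighter genes than among all genes. After leucine removal it was 3.7% higher and 1.67% lower in the brightest 50% of genes, 2.75% and 1.08% in the brightest 25%, and 2.54% and 1% in the brightest 10%. After lysine removal it was 6.42% higher and 4.97% lower in the brightest 50%, 5.15% and 3.33% in the brightest 25%, and 5.4% and 2.08% in the brightest 10%. A single subunit gene past the fold is thus near what bright genes show in general. With each array centred on its median, which lowers the median of all genes by a similar amount (to -0.12 after leucine and -0.24 after lysine removal), 34 and 36 of the 36 genes lay below 0 and 8 were at least 1.5-fold lower after lysine removal. The shares of all genes past these cuts are not given for that centring, so its counts are not read as a trait of the subunits. The subunit median minus that of all genes was -0.17 after leucine and -0.16 after lysine removal, both with and without that centring. Minus that of the brightest 10% of genes it was -0.13 and -0.11, again with and without it.

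**Figure D1:**
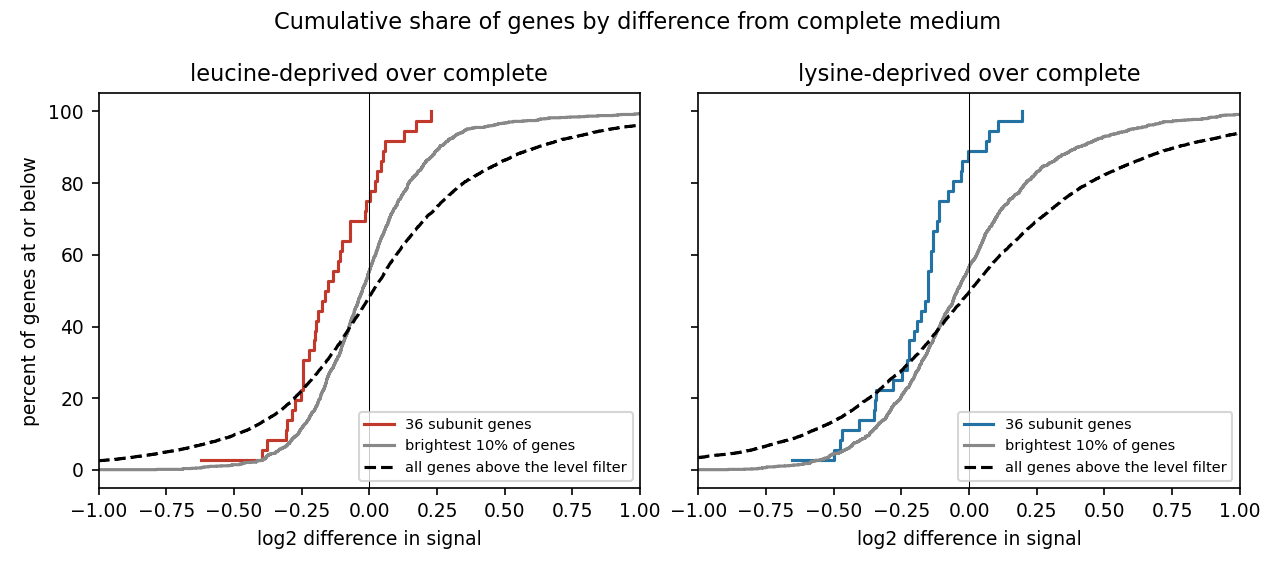
Cumulative percent of genes (y axis) at or below each log2 difference in signal (x axis), for leucine-deprived over complete medium (left) and lysine-deprived over complete medium (right). The coloured curve of the 36 subunit genes crosses 0 at 75% and 88.9%, where the brightest 10% of genes (grey) reach 55.6% and 56.4% and all genes (dashed) 48.3% and 49.5%.

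With no replicate arrays, error was gauged from how far probe sets of the same gene disagree. Over 18 subunit genes with several kept probe sets (45 in all), the SD between probe sets of the same gene was 0.25 for leucine-deprived over complete medium and 0.37 for lysine-deprived over complete medium, and 0.13 in each for the 14 such probe sets at the level of the brightest 10% of genes. It leaves out the spread between cultures and between arrays, since the probe sets of a gene read the same hybridised RNA. The value of 0.37 takes in dim probe sets of PSMD4 (1.21), PSMB2 (-1.29) and PSMC2 (0.89). The PSMD4 and PSMB2 values are bounds, since a signal lay under the floor. Past the larger SD, 9 of 36 subunit genes were lower and 0 higher after leucine removal, where 22.5% of all genes were lower and 26.9% higher, and 12.1% and 11.1% of the brightest 10%. After lysine removal 5 were lower and 0 higher, where 19.9% of all genes were lower and 23.2% higher, and 9.56% and 11% of the brightest 10%. Past the SD of 0.13, a cut added after the values were seen, 16 of the 26 subunit genes in the brightest 10% were lower and 1 was higher in each comparison. The shares of the brightest 10% of genes past it were 29.3% lower and 22.4% higher after leucine removal, and 36.7% and 26.3% after lysine removal. Below, a gene with a difference within 0.25 after leucine or 0.37 after lysine removal is given by its values. It cannot be told from 0 by the larger SD, which for bright genes is wider than the SD of 0.13 at their level.

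The alpha ring forms the gate of the core and is where assembly starts. Its 6 measured genes had median differences of -0.08 after leucine removal, with 3 below 0, and -0.09 after lysine removal, with 5 below 0. PSMA2 had signals of 23804 and 25416 on the leucine- and lysine-deprived arrays and 28199 in complete medium, differences of -0.24 and -0.15. PSMA5 had 10168 and 9590 on the deprived arrays and 11384 in complete medium. Both genes were brightest in complete medium on these probe sets, although a second PSMA5 probe set was 0.30 higher after leucine removal. PSMA4 had 14905 and 16815 on the deprived arrays and 17143 in complete medium. PSMA1 went the other way, with 23248 and 21348 on the deprived arrays and 19836 in complete medium (0.23 and 0.11), and 1 of its other probe sets lay at -0.10 and -0.15. PSMA3 and PSMA7 differed by 0.00 and 0.05 after leucine removal and by -0.06 and -0.12 after lysine removal. A second kept probe set of each had the other sign in both comparisons. It lay at -0.31 and 0.16 for PSMA3, where it was dim, and at -0.23 and 0.14 for PSMA7. PSMA8, which encodes the alpha subunit of germ cell proteasomes, was below the level filter, with signals of 54.6 and 14.2 on the deprived arrays, under their floors of 56.7 and 62.4, and 87.0 in complete medium, where the floor was 54.6.

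**Figure D2:**
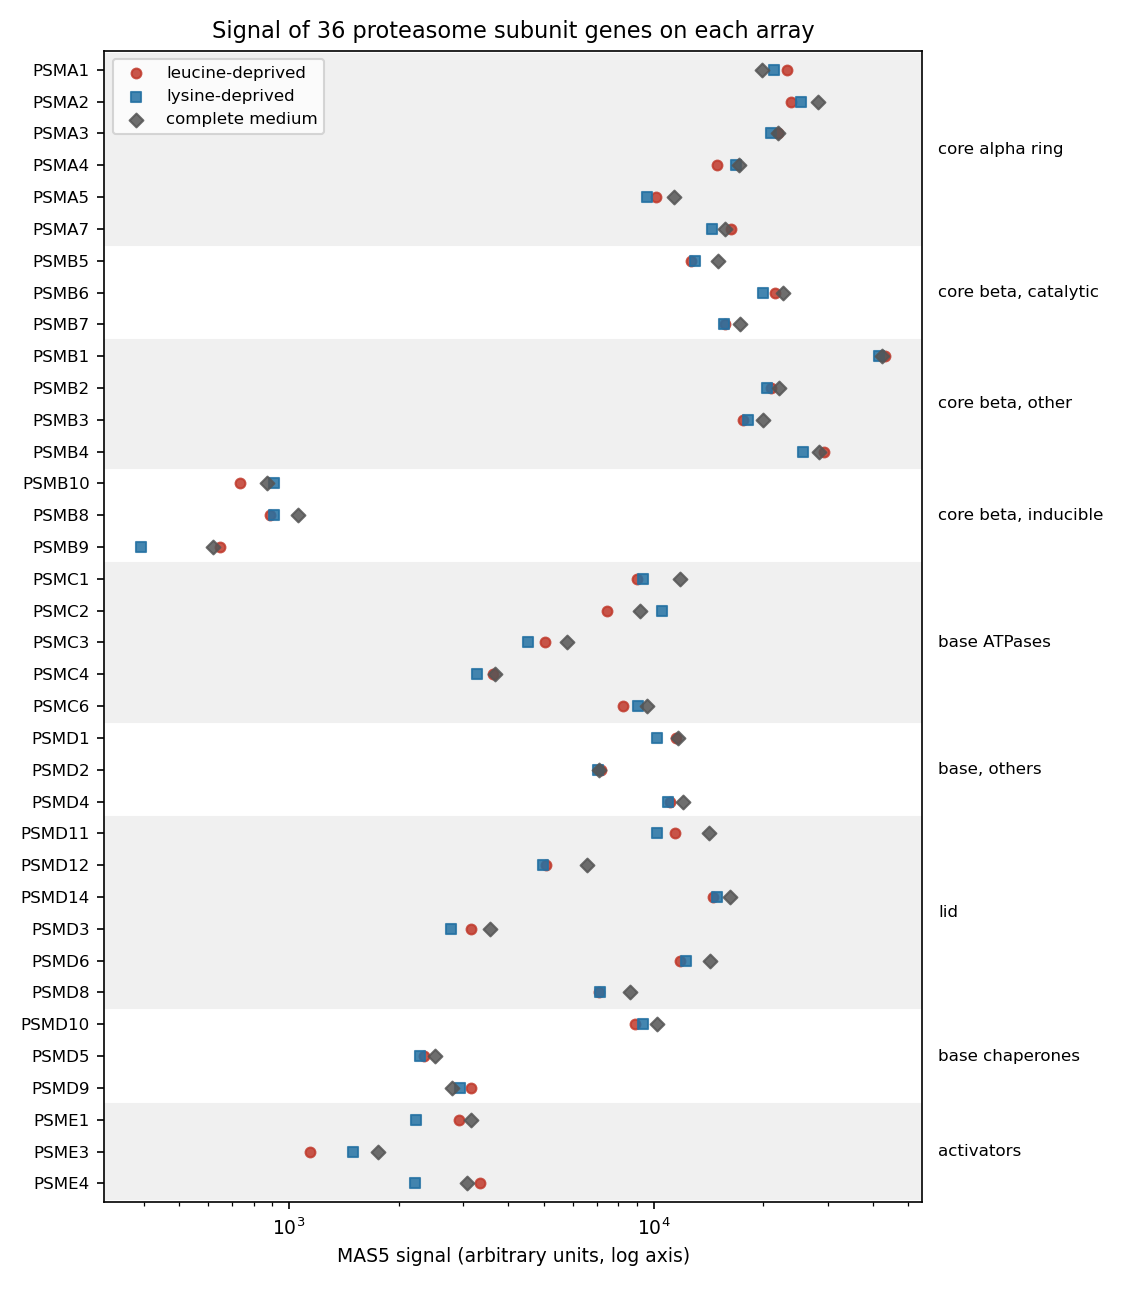
MAS5 signal (x axis, log scale, arbitrary units) of the brightest kept probe set of each of the 36 subunit genes (y axis, grouped by role) on the leucine-deprived (circles), lysine-deprived (squares) and complete-medium (diamonds) arrays, with 1 array each. The symbols of a gene lie close together, as for PSMB6 at 21552, 20007 and 22630, and signals are compared only within a gene, since probe sets differ in brightness for reasons other than RNA level.

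The constitutive catalytic genes had differences from complete medium between -0.25 and -0.07. PSMB5 after leucine removal (-0.2464) lay just past the SD between probe sets (0.2462) and is in the count of genes past it. The other values lay within the SD. PSMB5, the chymotrypsin-like site and the main target of proteasome inhibitor drugs, had signals of 12655 and 13024 on the leucine- and lysine-deprived arrays and 15013 in complete medium. That is a difference of -0.25 and -0.20 on its single kept probe set. PSMB6, the caspase-like site, had 21552 and 20007 on the deprived arrays and 22630 in complete medium (-0.07 and -0.18). PSMB7, the trypsin-like site, had 15726 and 15569 on the deprived arrays and 17276 in complete medium (-0.14 and -0.15), and a second PSMB7 probe set lay at -0.21 and 0.16. All 3 genes were brightest in complete medium on the probe set used, and none differed from it by more than 0.25 there.

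The other beta ring genes were nearest to 0 of the core groups after leucine removal, with a median of -0.02 over 4 genes after leucine and -0.13 after lysine removal. PSMB3 had signals of 17531 and 18104 on the deprived arrays and 19975 in complete medium. PSMB4, a structural subunit of that ring, had 29301 and 25605 on the deprived arrays and 28471 in complete medium, while another of its probe sets was 0.45 and 0.32 higher. PSMB2 differed by -0.07 and -0.11 and PSMB1 by 0.03 and -0.03, so the leucine-deprived array lay on either side of complete medium within this group.

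PSMB8, PSMB9 and PSMB10 replace PSMB5, PSMB6 and PSMB7 in the immunoproteasome, the form induced by interferon that favours peptides for antigen presentation. PSMB9 had signals of 646 and 394 on the leucine- and lysine-deprived arrays and 620 in complete medium. It was thus 1.57-fold lower after lysine removal (-0.65) and 0.06 higher after leucine removal, on 1 probe set. PSMB8 had 889 and 908 on the deprived arrays and 1059 in complete medium (-0.25 and -0.22). PSMB10 had 734 and 909 on the deprived arrays and 870 in complete medium (-0.25 and 0.06). Each of these genes rests on 1 probe set that is dimmer than the brightest 10% of genes. The immune cell markers, listed above, summed to 153 and 357 on the deprived arrays and 246 in complete medium, and their part in these values was not tested.

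The base ATPases unfold substrates and push them into the core. All 5 measured genes lay below 0 after leucine removal (median -0.22), and 4 of 5 after lysine removal (median -0.16). PSMC1 had signals of 8986 and 9324 on the leucine- and lysine-deprived arrays and 11824 in complete medium, differences of -0.40 and -0.34. PSMC3 had 5037 and 4522 on the deprived arrays and 5773 in complete medium (-0.20 and -0.35). PSMC1 and PSMC3 were brightest in complete medium, each on 1 kept probe set. PSMC2 had 7449 and 10529 on the deprived arrays and 9196 in complete medium (-0.30 and 0.20). Its other probe sets did not settle the direction, since after lysine removal they ranged from -0.30 to 0.89. PSMC6 had 8229 and 9084 on the deprived arrays and 9596 in complete medium, and PSMC4 differed by -0.02 and -0.16.

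The base also holds the scaffold proteins PSMD1 and PSMD2, which dock ubiquitin shuttles, and the ubiquitin receptor PSMD4. These differed little, with medians of -0.01 after leucine and -0.14 after lysine removal. PSMD2 had signals of 7174 and 7043 on the deprived arrays and 7069 in complete medium. PSMD1 had 11531 and 10193 on the deprived arrays and 11639 in complete medium, while PSMD4 had 11110 and 10929 on the deprived arrays and 12055 in complete medium. PSMD2 was nearly level across the arrays on its single kept probe set, and the second PSMD1 probe set differed by -0.25 and -0.41. A dim further probe set of PSMD4 differed by 0.74 and 1.21, and lay at a signal of 6.02 in complete medium, under the floor, so these are bounds.

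The lid removes ubiquitin chains from substrates and locks the regulatory particle to the core. Each of its 6 measured genes lay below 0 in both comparisons, with medians of -0.28 after leucine and -0.31 after lysine removal. PSMD11, a clamp between lid and core whose high level in human embryonic stem cells has been linked to their proteasome activity, had signals of 11433 and 10191 on the leucine- and lysine-deprived arrays and 14167 in complete medium. It differed by -0.31 and -0.48, and its second probe set by -0.45 and -0.69. PSMD11 was thus lower on each deprived array by both of its probe sets.

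PSMD12, another structural lid subunit, had signals of 5054 and 4967 on the deprived arrays and 6575 in complete medium, differences of -0.38 and -0.40. Its second probe set agreed in sign after leucine removal (-0.25) and not after lysine removal (0.12). PSMD3 had 3150 and 2791 on the deprived arrays and 3552 in complete medium (-0.17 and -0.35). PSMD8 had 7082 and 7110 on the deprived arrays and 8632 in complete medium (-0.29 and -0.28). PSMD3 and PSMD8 each have 1 kept probe set and were brightest in complete medium. PSMD6 differed by -0.27 and -0.22, and PSMD14, the deubiquitinating enzyme of the lid, by -0.15 and -0.11. Over the 14 measured genes of base and lid the median was -0.21 after leucine and -0.21 after lysine removal, beside -0.10 and -0.15 over the 16 genes of the core, differences that were not tested.

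**Figure D3:**
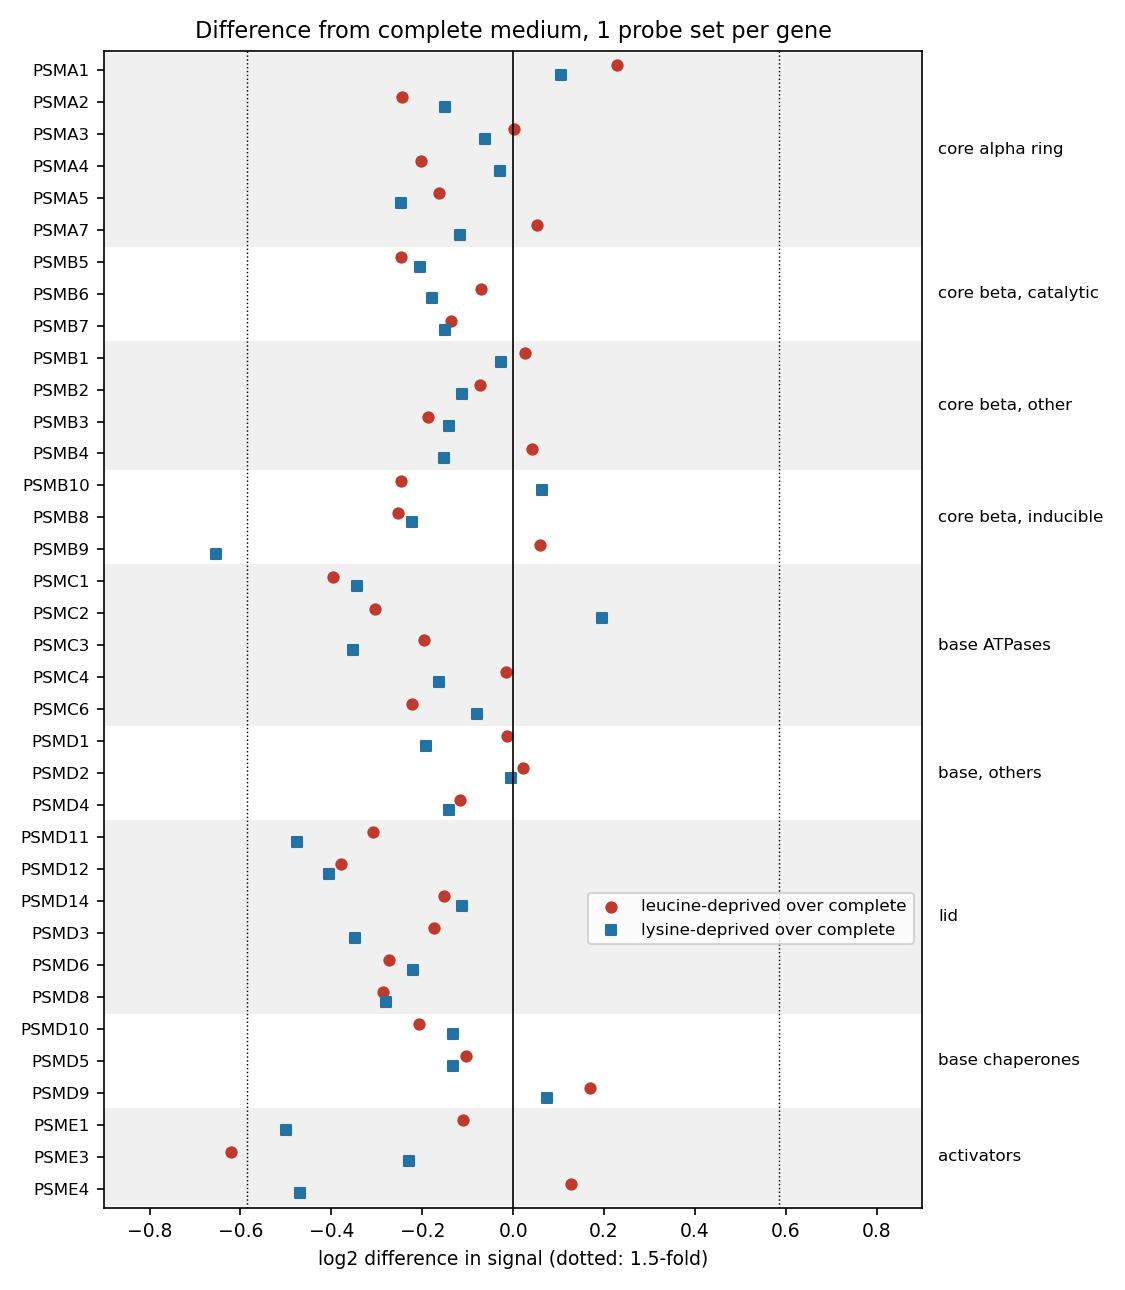
Log2 difference in signal from complete medium (x axis) for the brightest kept probe set of each of the 36 subunit genes (y axis, grouped by role), leucine-deprived (circles) and lysine-deprived (squares), with 1 array each and dotted lines at 1.5-fold. The 6 lid genes lie left of 0 in both comparisons, and PSME3 after leucine removal and PSMB9 after lysine removal are the points beyond a dotted line.

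The promoters of the 3 lid genes with the lowest values after lysine removal are shown (PSMD3 was not among the lowest 3 after leucine removal), because the subunit genes have a common regulator in NFE2L1, which binds the antioxidant response element. Its core was searched as TGACNNNGC on both strands in RefSeq promoters of GRCh38.p14, from 250 bases before to 50 after a start site. Capitals mark a match, and the sequences run from 5′ to 3′ on the strand of the gene.
PSMD11, chr17:32444260-32444559, plus strand: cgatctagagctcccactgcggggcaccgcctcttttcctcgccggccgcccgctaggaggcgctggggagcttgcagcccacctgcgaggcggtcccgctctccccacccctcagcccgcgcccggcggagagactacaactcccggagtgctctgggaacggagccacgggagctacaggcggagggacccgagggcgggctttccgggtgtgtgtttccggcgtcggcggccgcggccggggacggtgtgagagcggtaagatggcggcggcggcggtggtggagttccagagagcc
PSMD12, chr17:67366528-67366827, minus strand: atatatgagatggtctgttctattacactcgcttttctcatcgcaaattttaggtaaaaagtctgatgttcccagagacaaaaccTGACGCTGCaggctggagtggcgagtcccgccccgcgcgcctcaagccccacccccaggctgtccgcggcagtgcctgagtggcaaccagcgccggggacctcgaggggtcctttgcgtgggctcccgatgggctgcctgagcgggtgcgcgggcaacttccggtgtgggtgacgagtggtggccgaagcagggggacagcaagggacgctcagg
PSMD3, chr17:39980557-39980856, plus strand: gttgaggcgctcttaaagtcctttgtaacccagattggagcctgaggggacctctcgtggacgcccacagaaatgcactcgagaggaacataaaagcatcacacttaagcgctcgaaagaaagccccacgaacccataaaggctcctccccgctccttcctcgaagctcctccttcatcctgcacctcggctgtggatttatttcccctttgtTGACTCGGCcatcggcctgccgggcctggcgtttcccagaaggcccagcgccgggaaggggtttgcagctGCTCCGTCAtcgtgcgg
PSMD11, with no match in this window, and PSMD12 and PSMD3, with 1 and 2, differed by -0.48, -0.40 and -0.35 after lysine removal. Of the 37 subunit genes 32 had a promoter in the table, and 11 of these (34.4%) held a match in at least 1 promoter, beside 16.1% of 27056 genes in the table. The match is a description of these letters and not a binding site. The CCAAT box was found in 16 of the 32 genes (50%), beside 39.8% of all genes, and the core of the element bound by ATF4 with C/EBP factors, searched as TGATGNAA, in 0 of 32, beside 4.48% of all genes. Each was searched on both strands, and 0 of the 13 TGACNNNGC matches in subunit promoters overlapped a CCAAT match.

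The matches also fell in base, base chaperone, core and activator genes. Those in core and activator genes are shown with 8 bases on either side, in the orientation of the gene and with the coordinates of the match.
PSMA4, chr15:78540660-78540668: gggcacgaTGACTCTGCaccgcctc
PSMB3, chr17:38752637-38752645: ctccgtttTGACTTTGCaaccaaac
PSMB9, chr6:32854044-32854052: gcggggctGCCTCGTCActtgtctc
PSME1, chr14:24136108-24136116: ggcagggcTGACCCCGCctcctcca
PSME4, chr2:53971019-53971027: cggcggctGCAGCGTCAccagcaga
After leucine removal these genes, in this order, differed by -0.20, -0.19, 0.06, -0.11 and 0.13, all within the SD between probe sets. After lysine removal PSMA4 differed by -0.03, PSMB3 by -0.14, PSMB9 by -0.65, PSME1 by -0.50 and PSME4 by -0.47. The base and base chaperone genes with a match, not shown, were PSMC4, PSMD1, PSMD5 and PSMD9. In this order they differed by -0.02, -0.01, -0.10 and 0.17 after leucine removal. After lysine removal they differed by -0.16, -0.19, -0.13 and 0.07.

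The subunit genes PSMD5, PSMD9 and PSMD10 encode chaperones that hold ATPases apart until the base is built and do not stay in the finished particle. PSMD10, also known as the oncoprotein gankyrin, had signals of 8867 and 9336 on the deprived arrays and 10229 in complete medium (-0.21 and -0.13). PSMD9 had 3153 and 2951 on the deprived arrays and 2802 in complete medium (0.17 and 0.07), and its second probe set lay at 0.40 and 0.24. PSMD5 had 2341 and 2293 on the deprived arrays and 2514 in complete medium. On the probe sets used for these 3 genes, the differences lie within the SD between probe sets.

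The activators cap the core in place of the regulatory particle and open its gate without ubiquitin. PSME1, part of the interferon-induced cap, had signals of 2922 and 2230 on the leucine- and lysine-deprived arrays and 3152 in complete medium, differences of -0.11 and -0.50. PSME3, which forms a nuclear cap, had 1139 and 1495 on the deprived arrays and 1753 in complete medium, which made it 1.54-fold lower after leucine removal (-0.62). Its other 3 probe sets lay between -0.36 and -0.04 there, so the call rests on the brightest probe set, whose identifier marks it as open to cross-hybridisation. PSME4, a large cap linked to histone turnover, had 3352 and 2218 on the deprived arrays and 3069 in complete medium (0.13 and -0.47). Its other 2 probe sets lay at -0.71 and -0.17 after leucine removal, and after lysine removal all 3 lay below 0, from -0.81 to -0.27. The activators had medians of -0.11 after leucine and -0.47 after lysine removal over 3 genes.

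**Figure D4:**
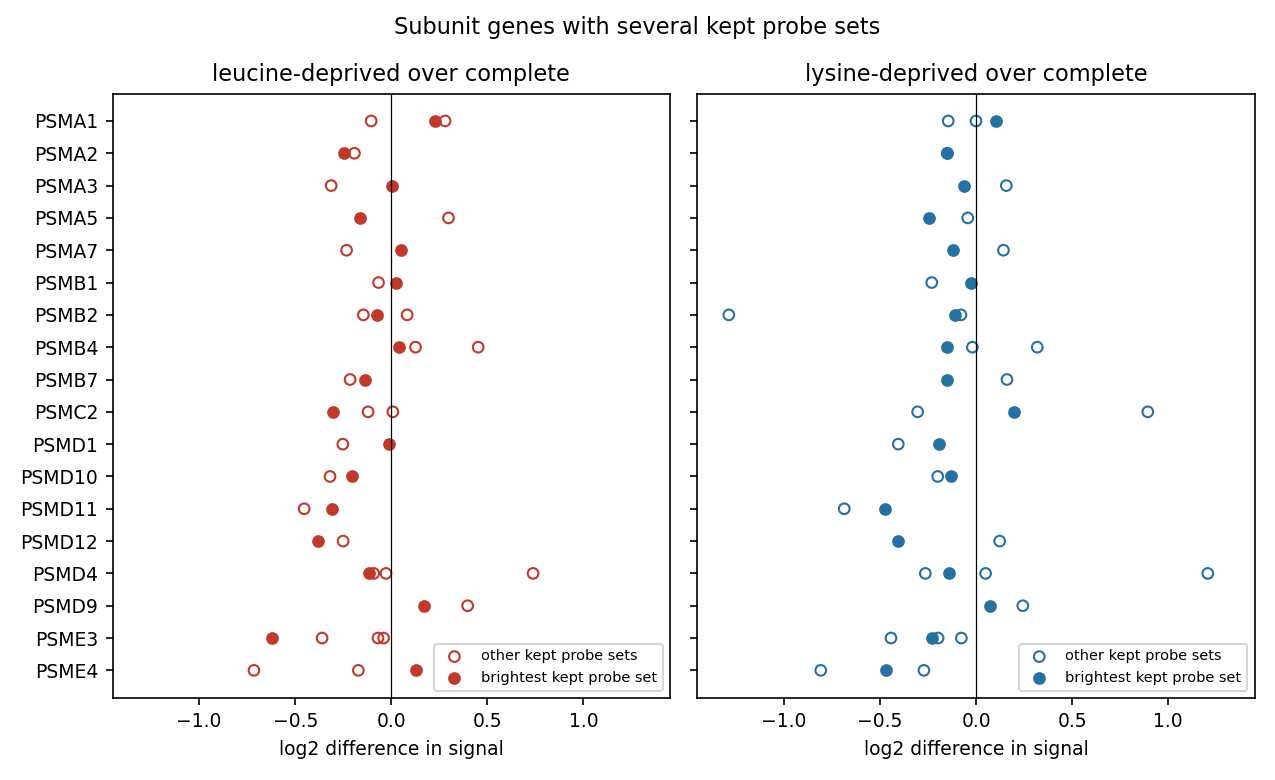
Log2 difference in signal from complete medium (x axis) for all kept probe sets of the 18 subunit genes that have several (y axis), with the brightest probe set filled, for leucine-deprived (left) and lysine-deprived (right) cells. The probe sets of PSMD11 and PSMD10 lie left of 0 in both panels, whereas single dim probe sets of PSMC2 (0.89), PSMD4 (1.21) and PSMB2 (-1.29) lie far from the others after lysine removal. The PSMD4 and PSMB2 points are bounds, drawn at the floor of the array on which the probe set lay below it, and so is the PSMD4 point at 0.74 on the left.

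All kept probe sets of a gene differed the same way in 9 of the 18 genes after leucine removal and in 10 of 18 after lysine removal. Over the 63 kept probe sets, which share genes and are not independent, 46 lay below 0 after leucine removal and 50 after lysine removal, with medians of -0.14 and -0.15. At the level of the brightest 10% of genes these were 26 and 31 of 34 probe sets. The same shares are not given over all genes or all probe sets, so none of these counts is read as a trait of the subunits. Of the 36 brightest probe sets used for the genes, 4 (of PSMA1, PSMA7, PSMD4 and PSME3) carry the identifier _x_at, which marks probes that may bind unrelated transcripts, and 12 others, PSMD11, PSMD12, PSMC1 and PSMA2 among them, carry _s_at, which marks probes shared by several transcripts of a gene or family. Both kinds are called shared probe sets here.

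Between the deprived arrays the subunit genes lay close to each other. Leucine-deprived over lysine-deprived signal had a median log2 difference of 0.03 over the 36 genes, with 14 below 0, beside a median of 0.02 and 48.1% below 0 for all genes and 45.1% for the brightest 10%. At least 1.5-fold, 2 genes were higher on the leucine-deprived array and 0 lower, beside 7.29% and 8.71% of all genes and 0.54% and 1.54% of the brightest 10%. The 2 subunit genes were PSMB9, with 646 on the leucine-deprived and 394 on the lysine-deprived array (1.64-fold, 0.71), and PSME4, with 3352 and 2218 on these arrays (1.51-fold, 0.60). The other PSME4 probe sets lay at 0.09 and 0.10, and PSMC2 was lower on the leucine-deprived array by 0.50 on its brightest probe set while another lay at 0.18.

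The genes around the subunits were read from lists of assembly factors and associated proteins, the NFE2L1 pathway, ubiquitin genes and shuttles, and antigen presentation. Of 16 assembly factors and associated proteins 12 lay below 0 after leucine removal and 9 after lysine removal, with medians of -0.08 and -0.06 and 0 genes past 1.5-fold in either direction. ADRM1, a ubiquitin receptor of the base, had signals of 3474 and 2505 on the leucine- and lysine-deprived arrays and 3559 in complete medium (-0.03 and -0.51). UCHL5, the deubiquitinase that ADRM1 binds, differed by -0.42 and -0.31. Its other probe sets lay at -0.59 and, on a dim one, 0.46 after leucine removal. ECPAS, a proteasome adaptor, was 0.21 and 0.42 higher, and PSMG4, a chaperone of alpha ring assembly, differed by -0.37 and -0.05. Other ECPAS probe sets ranged from -0.19 to 0.42 after leucine and from -0.19 to 0.27 after lysine removal.

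NFE2L1 itself was higher on both deprived arrays, while its known target family, the subunit genes, had medians below 0. It had signals of 10375 and 8957 on the leucine- and lysine-deprived arrays and 4703 in complete medium, 2.21-fold and 1.90-fold higher. Its other 2 kept probe sets, shared probe sets like the first, were also higher, by 0.74 and 1.01 after leucine removal and by 0.82 and 0.99 after lysine removal. NFE2L2, the related factor of the oxidative stress response, had 3462 and 3910 on the deprived arrays and 2166 in complete medium (0.68 and 0.85). NGLY1, which removes sugars from NFE2L1 as it leaves the endoplasmic reticulum, had 1921 and 2042 on the deprived arrays and 1373 in complete medium (0.48 and 0.57). VCP, the ATPase that extracts NFE2L1 from the membrane, went the other way, with 7430 and 5389 on the deprived arrays and 9152 in complete medium (-0.30 and -0.76). The 7 measured genes of this list had medians of 0.48 after leucine and 0.46 after lysine removal, with 2 at least 1.5-fold higher in each and 0 and 1 lower. Without shared probe sets these medians were 0.00 and -0.01. That setting leaves out every probe set of NFE2L1, NGLY1 and MAFG, and reads NFE2L3 and VCP on dimmer probe sets.

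**Figure D5:**
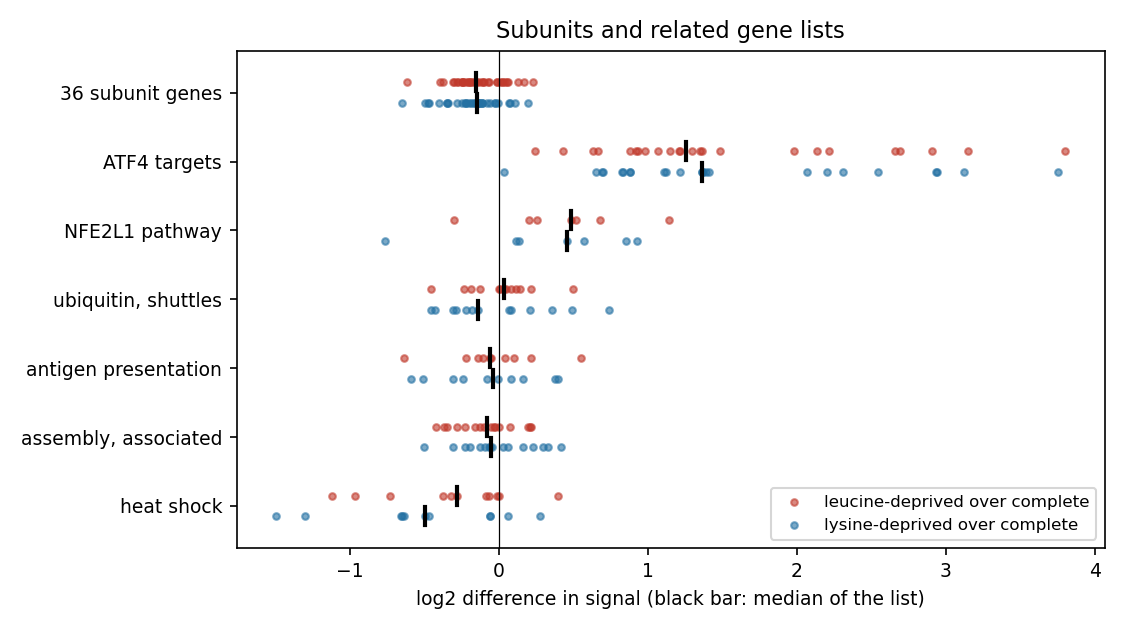
Log2 difference in signal from complete medium (x axis) for the 36 subunit genes and 6 related gene lists (y axis), leucine-deprived (upper row of each list) and lysine-deprived (lower row), 1 point per gene and a black bar at the median. The subunit medians are -0.16 and -0.15, those of the NFE2L1 pathway 0.48 and 0.46, and those of the heat shock genes -0.28 and -0.50.

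The 13 measured ubiquitin genes and shuttles had medians of 0.03 after leucine and -0.14 after lysine removal. ZFAND2A, a proteasome-associated gene of the arsenite and heat stress response, had signals of 2389 and 2835 on the deprived arrays and 1696 in complete medium (0.49 and 0.74). UBQLN1, a shuttle that carries ubiquitinated proteins to the proteasome, was 0.04 and 0.49 higher, whereas its relative UBQLN4 differed by -0.45 and -0.46 and UFD1, a VCP cofactor, by -0.23 and -0.43. Other UBQLN1 probe sets lay at 0.06 and -0.01 after leucine and at 0.11 and 0.24 after lysine removal. A second UBQLN4 probe set lay at -0.56 and 0.11, of the other sign after lysine removal. Antigen presentation genes, which interferon induces with PSMB8 and PSMB9, had medians of -0.06 and -0.04 over 10 genes, with 1 at least 1.5-fold lower in each comparison, TAP2 after leucine and HLA-C after lysine removal. HLA-C differed by -0.14 and -0.59 and HLA-B by -0.22 and -0.51, and probe sets of these genes can bind one another's transcripts. Other HLA-C probe sets ranged from -0.18 to 0.06 after leucine and from -0.56 to 0.25 after lysine removal. Those of HLA-B lay at -0.15 and -0.63 after leucine and at -0.78 and -0.62 after lysine removal. TAPBP differed by 0.55 and 0.08, and TAP2, a dim gene that neighbours PSMB8 and PSMB9, by -0.64 and 0.16. A second TAP2 probe set was lower by 0.91 after leucine removal, with signals of 163 and 40.2 on the deprived arrays and 306.6 in complete medium. The signal of 40.2 is under the floor of 62.4, so its difference of -2.30 after lysine removal is a bound, of the other sign than that of the first probe set. For scale, the 11 measured heat shock genes had medians of -0.28 and -0.50, and all 24 listed ATF4 targets lay above 0 in both comparisons, 22 and 23 of them at least 1.5-fold higher.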

How the data were processed

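RNA from khES3 cells was measured on 3 Affymetrix arrays, 1 per medium. Each deposited value is a linear signal intensity of 1 probe set, which the authors made with MAS5, per the submitters' processing notes. Its settings were not given in the sources used here. The trimmed mean of the signal was 500.1 on every array, so the arrays carry a common scale and any difference in total mRNA is removed. Genes were named from the platform annotation, and 5 probe sets naming a subunit with another gene were left out.

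Signals under an array's 40th percentile were raised to it before log2. The brightest probe set that passed the filter stood for its gene. No test was possible, and differences are described beside those of all genes and of the brightest 10%. The members and lists were chosen with earlier results of these data known, and the brightest 10% was added after the members' levels were seen. Values were printed for the 6 catalytic genes and up to 4 genes per role group and up to 4 per related list with the largest difference from complete medium; other members were named with differences only. Alternatives were 3 scalings, 3 floors, 2 filters, 2 ways of combining probe sets, leaving out shared probe sets, and other folds. The calculations were tested on simulated signals in which bright genes were given differences of 2-fold or more. Differences as small as most of those reported here were not covered by that check. Python 3.11.15, numpy 2.4.6, pandas 2.3.3, limma 3.58.1 and R 4.3.3 ran the calculations. Precision is limited by the number of arrays.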

Additional observations from a re-analysis of the deposited data

How the results depend on the processing

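No paired analysis was possible because each medium has 1 array. The subunit median stayed below 0 under all 11 alternatives of scaling, floor, filter and probe set choice, from -0.29 to -0.12 after leucine and from -0.40 to -0.13 after lysine removal. The lowest medians, -0.29 and -0.40, came from median centring, which also moved the median of leucine- over lysine-deprived to 0.15. That last median changed sign with cyclic loess (-0.0016) and with probe sets averaged per gene (-0.018). Relative to the median of all genes, the subunit median lay between -0.22 and -0.12 after leucine and between -0.34 and -0.13 after lysine removal. Without a level filter the median of all genes was 0.05 and 0.19, and with a floor at percentile 60 it was 0.04 and 0.14.

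Counts of subunit genes past the fold are small and moved easily. After leucine removal the lower count was 1, and became 3 at a log2 threshold of 0.32, 0 at 2-fold, 0 with probe sets averaged per gene and 0 without shared probe sets. After lysine removal the lower count was 1, and became 8 at a log2 threshold of 0.32, 0 at 2-fold, 8 with median centring, 3 with the dimmest probe set and 2 without shared probe sets; the higher count was 0 and became 1 with the dimmest probe set. For leucine- over lysine-deprived the higher count was 2, and became 0 at 2-fold and 1 with cyclic loess, the dimmest probe set or the mean; the lower count was 0 and became 2 at a log2 threshold of 0.32 and 1 with the dimmest probe set. The cause of these moves was not tested. At a log2 threshold of 0.32, 14.6% of all genes were lower after leucine and 20.1% after lysine removal, and 7.68% and 16.1% of the brightest 25%. For leucine- over lysine-deprived, 18.5% of all genes were lower at that threshold. Without shared probe sets 25 subunit genes remained. Shares of all genes are not given for the other scalings and probe set choices, so these counts are not read as a trait of the subunits. Of the values of single named subunit genes under an alternative, 962 stayed within the SD between probe sets and 31 moved by more. Other floors and filters can hardly move bright genes, and combining probe sets cannot move a gene with 1 kept probe set. Staying within the SD also allows a change of sign, as for PSMA1 after lysine removal, from 0.11 to -0.14 with median centring. The count that stayed is therefore no measure of robustness. Of list medians 194 stayed and 4 moved. That of the NFE2L1 pathway was 0.00 after leucine and -0.01 after lysine removal without shared probe sets. That setting leaves out every probe set of NFE2L1, NGLY1 and MAFG, and reads NFE2L3 and VCP on dimmer probe sets.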

Other observations

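Several subunit genes have dim probe sets that read far from their bright ones. The dim PSMB2 probe set that passed the level filter had signals of 161 and 21.8 on the leucine- and lysine-deprived arrays and 152 in complete medium, the value of 21.8 being under the floor of 62.4, while its brightest had 20991, 20422 and 22074. A dim PSMC2 probe set had 258 and 476 on the deprived arrays and 256 in complete medium, while the brightest had 7449, 10529 and 9196. A PSMB1 probe set below the level filter had 98.6 and 103.9 on the deprived arrays and 32.2 in complete medium, the last being under the floor of 54.6, where the bright one had 43045, 41467 and 42267. In all, 6 probe sets of subunit genes lay below the filter.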
